A study of Mus musculus and Homo sapiens with 12 samples.

Results

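Malat1 and Neat1, 2 long noncoding RNAs (lncRNAs) that stay in the nucleus, were followed through m5C methylated RNA immunoprecipitation of chromatin-associated RNA (caRNA) from a mouse and a human cell line. The members were found by Ensembl identifier: mouse Malat1 and Neat1 among 54446 genes counted in mouse embryonic stem cells (mESC), human MALAT1 and NEAT1 among 58676 genes counted in K562, and 2 of 35162 merged mESC peak regions that lay in a member's body. Both lines were wild type. Both grew with serum. The mESC medium held LIF, CHIR99021 and PD0325901, and the cells were passaged on gelatin to remove feeder cells, whereas the medium of K562, an established human erythroleukaemia line labelled as lymphoblast cells, held puromycin per the labels, an agent that the methods name for the short-hairpin lines of the study. Each line gave 3 Input libraries (fragmented caRNA) and 3 IP libraries (the fragments retained by an antibody against 5-methylcytosine), 12 libraries in all, and the comparison of IP with Input asks how strongly each RNA was retained. No knockout or treatment was part of these libraries. The paper calls the replicates behind its genome-wide data biological, but nothing in the labels says that they were separate cultures. The p-values measure the spread between these libraries, which may be technical.

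Both RNAs are abundant, unspliced for most of their length and largely confined to the nucleus. Malat1 is concentrated in nuclear speckles, bodies rich in splicing factors, while Neat1 is the scaffold of paraspeckles and is made as a short polyadenylated and a long isoform from the same start. RNase P cuts the 3′ end of Malat1 and of the long Neat1 isoform, which releases a small tRNA-like RNA (mascRNA and menRNA, respectively) and leaves a genomically encoded triple helix in place of a poly(A) tail. In these counts the short and the long Neat1 isoform shared one gene record, so they could not be told apart.

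In the annotation used for lengths (GENCODE, another release than the one the authors counted with), mouse Malat1 (ENSMUSG00000092341) spanned chr19:5795690-5802672 and Neat1 (ENSMUSG00000092274) chr19:5824708-5845478, both on the minus strand of GRCm38. Human MALAT1 (ENSG00000251562) spanned chr11:65497640-65508073 and NEAT1 (ENSG00000245532) chr11:65422774-65445540, both on the plus strand of GRCh38. The union of annotated exons covered the whole body of all 4, with lengths of 6983, 20771, 10434 and 22767 bases in that order. Cytosines made up 17.1% of the RNA sequence of Malat1, 22.2% of Neat1, 17.9% of MALAT1 and 20.4% of NEAT1. Between the species, blastn aligned 79.7% of the mouse Malat1 sequence to MALAT1, at 76.7% identity, and 7.42% of Neat1 to NEAT1, at 73.2% identity.

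The libraries differed widely in depth. Gene counts ran from 29007088 to 34752646 in mESC Input, from 473398 to 592324 in mESC IP, from 10477119 to 11865285 in K562 Input and from 93110 to 111286 in K562 IP. Records that fell in no gene or were set aside made up 19% to 19.3% of all records in mESC Input and 71.4% to 71.7% in mESC IP, and 26.0% to 26.2% and 60.7% to 61.4% in K562. A gene without a count in a K562 IP library could still have reached 27.0 to 32.2 CPM, the level of 3 counts, where CPM is a gene's count scaled to an equal total of gene counts in every library. Of the stem cell markers, 6 of 7 were above 1 CPM in mESC Input, with a summed level of 2127 to 2152 CPM. Of 6 feeder fibroblast markers, 4 were above 1 CPM there, with a summed level of 65.8 to 69.1 CPM. In mESC IP the stem cell markers summed to 1055 to 1246 CPM and the feeder markers to 48.6 to 117 CPM. Sox2 had no counts in any mESC library, and its body overlaps Sox2ot on the same strand. In K562 Input, 6 of 8 erythroleukaemia markers were above 1 CPM (summed level 628 to 651 CPM), HBG2 and HBE1 had no counts and overlap other annotated genes, and markers of other blood lineages summed to 74.7 to 75.5 CPM, nearly all of it PTPRC. The antibody label does not separate the kinds of library (it reads none for mESC IP and names the m5C antibody for K562 Input), so the groups were taken from the sample titles. A mouse IgG reaction is described in the protocol and was not analysed here, so retention without m5C was not measured.

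In K562, MALAT1 had the highest IP/Input value of all genes with at least 100 CPM in Input, and NEAT1 was higher in IP as well. MALAT1 counted 5115, 4990 and 4986 reads in the 3 Input libraries and 553, 599 and 521 in the far smaller IP libraries. As a share of gene counts this was 431, 433 and 476 CPM in Input against 5123, 5383 and 5596 CPM in IP, and no IP library came near an Input library. Mean CPM was 447 ± 25.4 in Input and 5367 ± 236 in IP (SD, n = 3), a ratio of 12. The fit over 14522 genes (edgeR quasi-likelihood test on counts, TMM scaling, Benjamini-Hochberg adjustment) gave a log2 IP/Input of 3.38 (SE 0.057, adjusted p = 5.7e-133), a 10.4-fold higher level in IP. Of all genes tested in K562, 15.1% were called higher in IP at an adjusted p under 0.05, and in 22.4% every IP library lay above every Input library in CPM.

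NEAT1 counted 6388, 6161 and 5988 reads in K562 Input and 194, 199 and 189 in IP. These were 538, 534 and 572 CPM in Input and 1797, 1788 and 2030 CPM in IP, again without overlap. The means were 548 ± 20.5 and 1872 ± 137 CPM (SD, n = 3), and NEAT1 was 2.95-fold higher in IP in the edgeR fit, 1.56 on the log2 scale with an SE of 0.080 and an adjusted p of 1.7e-46. With all counted records as library size, in place of gene counts with TMM scaling, the log2 value of NEAT1 was 0.84 and that of MALAT1 2.66, both still called (this setting was chosen after seeing the data). By rank of mean CPM among 58676 genes, MALAT1 moved from 256 in Input to 1 in IP and NEAT1 from 158 to 6. By CPM per exonic kb, among 50619 genes of at least 200 bases, MALAT1 was at rank 14 and NEAT1 at rank 213 in K562 IP, from 673 and 1749 in Input.

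**Figure D1:**
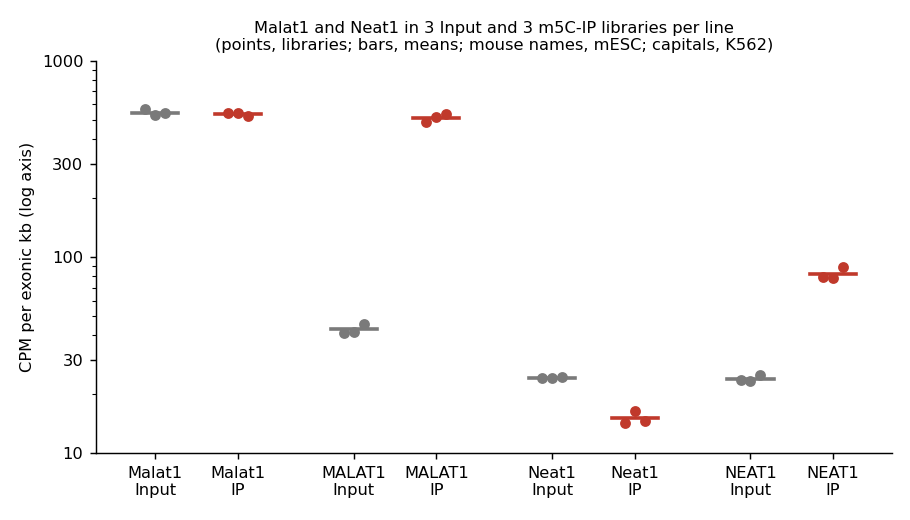
CPM per exonic kb (log axis) of the 4 genes in each of the 3 Input and 3 IP libraries of a line, as points, with bars at the means. MALAT1 and NEAT1 lay higher in IP than in Input, Neat1 lay lower in IP, and the Input and IP libraries of Malat1 overlapped.

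In mESC, Malat1 took the same share of gene counts in IP as in Input, and Neat1 took a smaller one. Malat1 counted 114762, 121669 and 131410 reads in Input and 1788, 2227 and 2155 in IP. These were 3956, 3682 and 3781 CPM in Input and 3777, 3787 and 3638 CPM in IP, and the IP libraries fell within or just under the range of Input. The means were 3807 ± 139 and 3734 ± 83.1 CPM (SD, n = 3), a ratio of 0.981. Relative to TMM scaling over 20244 genes, however, Malat1 was called lower in IP, by -1.0 on the log2 scale with an SE of 0.037 and an adjusted p of 1.6e-12 from edgeR. With library size scaling alone it was 0.0046 (adjusted p = 0.91). With Input counts thinned to IP depth, where the filter on low counts kept only 10315 genes, it was 0.31 (adjusted p = 0.0016). The direction thus depended on the setting, and thinned counts were not fitted on the unchanged gene list. Of all genes tested in mESC, 42.0% were called lower and 39.9% higher, and in 47.7% every IP library lay above every Input library in CPM. Leaving out Input replicate 1, 2 or 3 moved the value to -0.29, -0.34 or -0.32, because the filter on low counts then kept 12280 to 12292 genes. On the unchanged gene list, a setting chosen after seeing the data, the values without those libraries were -0.98, -1.02 and -1.0.

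Neat1 counted 14522, 16531 and 17776 reads in mESC Input and 141, 202 and 181 in IP. In CPM it stood at 501, 500 and 512 in Input and at 298, 343 and 306 in IP, and every IP library was below every Input library. In 27.6% of the genes tested in mESC all IP libraries lay below all Input libraries in CPM. The means were 504 ± 6.38 and 316 ± 24.4 CPM (SD, n = 3), a ratio of 0.626. In the edgeR fit Neat1 stood at -1.64 on the log2 scale of IP over Input, with an SE of 0.076 and an adjusted p of 1.5e-11. It kept its sign and call under every setting run, between -2.18 with all counted records as library size and -0.29 with thinned Input counts (adjusted p = 0.048). With library size scaling alone it was -0.64. Without Input replicate 1, 2 or 3 it was -0.97, -0.97 or -0.95, for the same change of the gene list. By rank of mean CPM among 54446 genes, Malat1 was at 2 in Input and 5 in IP, and Neat1 at 222 and 241.

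The IP/Input value of a gene varied with how abundant the gene was in Input. The members were therefore also set beside genes with at least 100 CPM in Input, as a description without a test. Of 2730 mESC genes with at least 100 CPM in Input, 97.8% were called lower in IP and 0.879% higher, with a median log2 IP/Input of -1.91. Malat1, at 3807 CPM and rank 2 in mESC Input, was more abundant than nearly all of them, so they did not match its level. At -1.0 it lay above 88.9% of them, and Neat1, at -1.64, above 66.6%. These shares ranged over the 14 alternative fits from 88.3% to 94.3% for Malat1 and from 55.6% to 68.2% for Neat1. A change of scaling alone shifts all genes about alike, so it could not move these shares. Malat1 lay at -0.83 from the median of all genes with TMM, RLE and library size scaling. By contrast, the 5677 tested mESC genes under 1 CPM had a median of 4.93, and many of these passed the filter only because they were counted in IP. In K562, the 2894 genes with at least 100 CPM in Input had a median of -0.57, with 56.5% called lower and 2.94% higher. None of them exceeded MALAT1, and 4 exceeded NEAT1: MALAT1 itself, EEF2 (a translation elongation factor, log2 2.27), NPM1 (a nucleolar chaperone, 1.59) and YBX1 (a nucleic acid binding protein, 1.58), the last 3 named after their values were seen. EEF2, NPM1 and YBX1 have processed pseudogenes that can share their reads, so their values are uncertain.

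**Figure D2:**
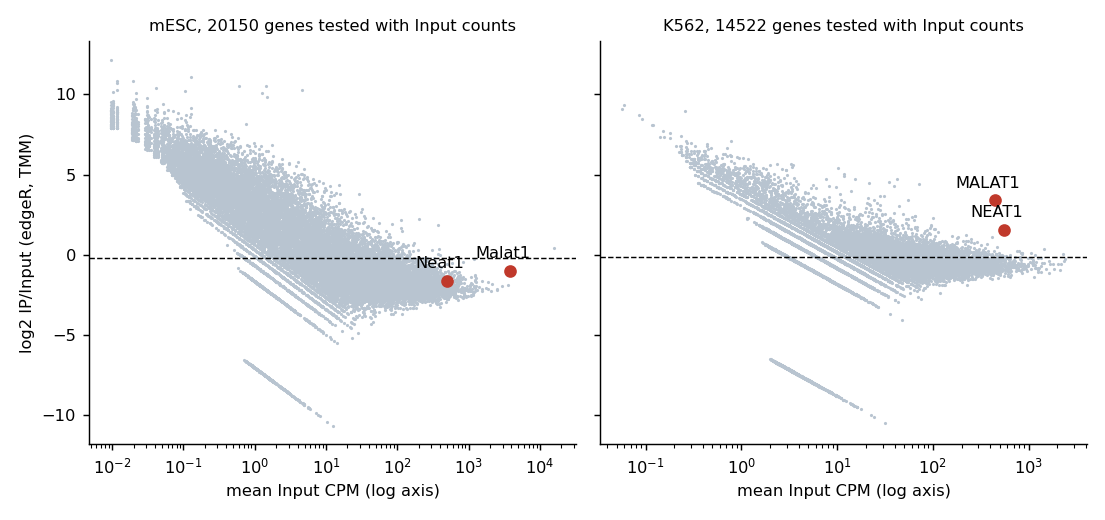
Fitted log2 IP/Input of each tested gene with Input counts against its mean Input CPM (log axis), for mESC and K562, with the members as large points and the median of the genes drawn as a dashed line. MALAT1 (3.38) and NEAT1 (1.56) lay above the cloud of genes of like Input level. In mESC, Neat1 (-1.64) lay among or just above the genes of like level, while Malat1 (-1.0), at rank 2 in Input, had few genes of its level beside it. The sign of Malat1 in mESC depended on the setting of the fit.

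Whether log2 IP/Input differed between the lines was tested by the interaction of line and kind of library, in 1 edgeR fit over 12 libraries and 14242 genes that share a symbol. Gene set and TMM scaling differed from those of the fits per line, so its differences do not equal those between the values given above. For Malat1 the log2 IP/Input was 3.75 higher in K562 than in mESC (SE 0.082, adjusted p = 5.1e-24), and for Neat1 it was 2.57 higher (SE 0.12, adjusted p = 2.2e-16). The median over all genes in this fit was 0.17, and 16.5% of genes were called higher in K562. Across all alternatives the difference stayed between 3.23 and 4.20 for Malat1 and between 2.06 and 3.08 for Neat1. For Malat1 the IP level was alike, at 535 CPM per exonic kb in mESC and 514 in K562, and the Input level was lower in K562, at 42.8 against 545. For Neat1 the Input level was alike, at 24.3 in mESC and 24.1 in K562, and the IP level was higher in K562, at 82.2 against 15.2. Line, species, gene model, library depth and, for Malat1, Input level all changed together in this comparison and cannot be told apart.

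The ratio of the 2 RNAs within a library does not depend on any scaling between libraries, and it rose from Input to IP in every library of both lines. In mESC there were 7.90, 7.36 and 7.39 Malat1 counts per Neat1 count in Input, and 12.7, 11 and 11.9 in IP. In K562 the same ratio was 0.801, 0.810 and 0.833 in Input, where NEAT1 outnumbered MALAT1, and 2.85, 3.01 and 2.76 in IP, where the order was turned. On the log2 scale the mean difference between IP and Input was 0.65 in mESC and 1.82 in K562, that is 1.57-fold and 3.52-fold. The groups did not overlap in either line, and the exact two-sided permutation test gave p = 0.10 in each, the smallest value that 3 against 3 libraries allow. Relative to Neat1, Malat1 was thus retained more strongly in both species, by more than the spread between libraries (SD of the log2 ratio 0.029 to 0.10).

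**Figure D3:**
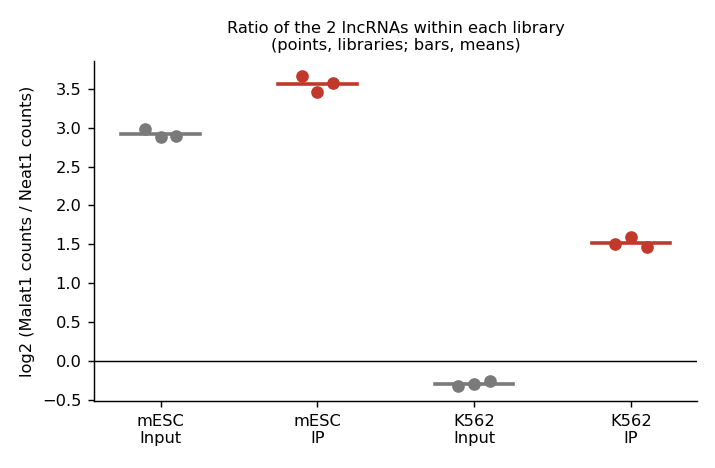
log2 of the ratio of Malat1 to Neat1 counts within each library, with points for libraries and bars for the means of 3. The IP libraries lay above the Input libraries in both lines, with means of 3.57 against 2.92 in mESC and 1.52 against -0.30 in K562.

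For levels compared between genes or species, CPM was divided by exonic length in kb. In Input, Malat1 stood at 567, 527 and 542 CPM per kb in mESC, and MALAT1 at 41.3, 41.5 and 45.6 in K562. The mESC level was thus 12.7-fold higher, a log2 difference (K562 minus mESC) of -3.67, with an exact two-sided permutation p = 0.10. Neat1 stood at 24.1, 24.1 and 24.6 CPM per kb in mESC Input and at 23.6, 23.5 and 25.1 in K562, which overlapped (log2 difference -0.013, exact permutation p = 0.80). In IP, Malat1 was at 535 ± 11.9 CPM per kb in mESC and MALAT1 at 514 ± 22.7 in K562, with overlapping libraries, while Neat1 was at 15.2 ± 1.18 and NEAT1 at 82.2 ± 6.02 (SD, n = 3). From the highest to the lowest by these lengths, the Input order was Malat1, MALAT1, then Neat1 and NEAT1, whose libraries overlapped. Neat1 and NEAT1 were divided by the length of the whole body, which the short isoform does not span. Where the short isoform is counted, their level per kb is understated, by an amount that could not be measured here. The likeness of Neat1 and NEAT1 in Input rests on these lengths as well. The human lengths come from a later annotation release than the counts, and a longer MALAT1 model lowers its level per kb. Fewer cells with the RNA and less RNA per cell cannot be told apart in such bulk libraries.

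The deposited mESC peaks placed no m5C-IP peak in Malat1 and 2 in Neat1. The lists held 11012, 15235 and 15630 distinct peaks for IP replicates 1, 2 and 3, and merging overlapping peaks per recorded strand gave 35162 regions, of which 30355 were in 1 list, 3096 in 2 and 1711 in all 3. No region touched the Malat1 body in any list, nor with 1 kb added on either side, although 73 of the 100 genes with the highest Input CPM had a region in their body. Among all tested genes 41.2% had a region in the body on either strand. The share was 22.0% for a body of 5 to 10 kb, the range of Malat1, and 34.9% for 15 to 30 kb, the range of Neat1. A region held by at least 2 replicates was in 7.31%, 2.91% and 5.03% of these genes, and in 16 of the 100 genes highest in Input. Each Neat1 region was 150 bp long and came from 1 list. The first, at chr19:5832471-5832620 of GRCm38, was in replicate 2 and lay 12859 to 13008 bases from the 5′ end of Neat1, and the second, at chr19:5830740-5830889, was in replicate 3, at 14590 to 14739 bases. Neither was in the other lists, so neither met the study's rule that a peak be present in all replicates, and counts of 0 remained with at least 2 or all 3 replicates required.

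Both Neat1 peaks were recorded on the plus strand, opposite to the gene. That was not particular to Neat1: of 17093 regions lying in the body of exactly 1 gene, 59.7% were recorded opposite to it. The sequences are shown because they are the stretches of the members that carry a peak call, on the strand of Neat1 with every cytosine, the base that can carry m5C on that strand, in capitals.
Neat1 peak of replicate 2: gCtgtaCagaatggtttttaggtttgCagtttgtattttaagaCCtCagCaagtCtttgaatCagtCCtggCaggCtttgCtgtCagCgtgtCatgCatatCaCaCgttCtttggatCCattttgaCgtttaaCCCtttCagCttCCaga
Neat1 peak of replicate 3: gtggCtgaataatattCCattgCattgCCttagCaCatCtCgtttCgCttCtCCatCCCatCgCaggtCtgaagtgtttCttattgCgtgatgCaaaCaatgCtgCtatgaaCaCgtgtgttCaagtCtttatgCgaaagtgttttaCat
The first held 32 cytosines and 3 CpG, had a GC content of 42.7% and no repeat-masked base. The second held 33 cytosines and 6 CpG, had a GC content of 42.0% and was repeat-masked over 30.7% of its length. The median GC content of the 30784 distinct 150-bp peaks was 50.7%. Motifs linked to m5C writers in RNA were searched on both strands, CNGGG for NSUN2 and CTCCA for NSUN6. CNGGG was in neither peak and in 70.3% of all 150-bp peaks, and CTCCA was in the second peak, once on the gene strand, and in 35.9% of all. A match or its absence is a description of these letters and says nothing of an enzyme. Over the whole RNAs, CNGGG occurred 17 times in Malat1 (2.43 per kb) and 95 times in Neat1 (4.57 per kb), and 39 times in MALAT1 (3.74 per kb) and 106 times in NEAT1 (4.66 per kb), on the strand of the gene.

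**Figure D4:**
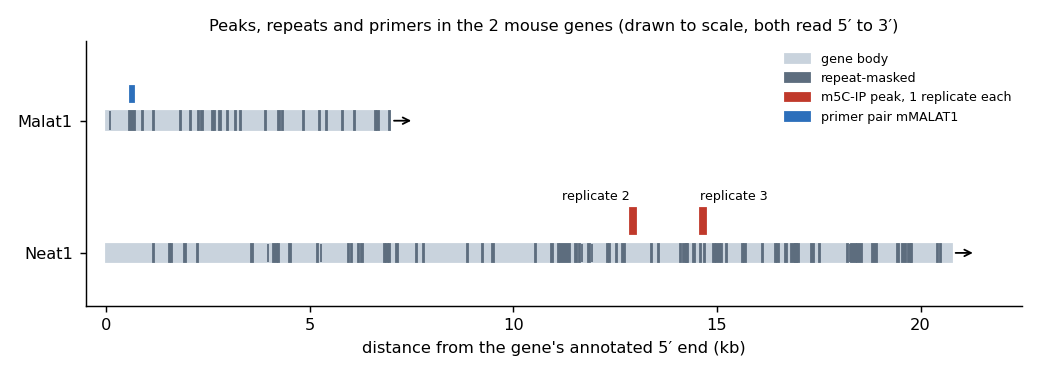
Malat1 and Neat1 drawn to scale by distance from the annotated 5′ end (kb), with repeat-masked stretches, the 2 Neat1 peaks with the replicate that held each, and the stretch between the outer ends of the primer pair mMALAT1. Both peaks lay in the distal part of Neat1, past 12859 bases, and Malat1 held none.

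The small RNAs at the 3′ ends were nearly uncounted. Mouse menRNA (Gm27702), directly after the annotated end of Neat1 at chr19:5824652-5824707, had 12 Input counts and none in IP. Human menRNA (ENSG00000275948), at chr11:65445541-65445598, had 1 Input count, and human mascRNA (ENSG00000274072), at chr11:65506117-65506173, had 0, although it lies within the annotated MALAT1 body, where reads can be set aside as ambiguous. The sequences are given because they are the ends by which these RNAs are made, with bases that differ between mouse and human menRNA in capitals. Both menRNA sequences were identical at 46 of 58 aligned positions.
Mouse menRNA, GRCm38, minus strand: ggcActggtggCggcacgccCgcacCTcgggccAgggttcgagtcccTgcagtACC
Human menRNA, GRCh38, plus strand: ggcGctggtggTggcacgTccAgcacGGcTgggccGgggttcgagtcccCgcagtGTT
Human mascRNA, GRCh38, plus strand: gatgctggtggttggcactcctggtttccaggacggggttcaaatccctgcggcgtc
Few counts were assigned to antisense records inside the genes. Gm37376, within Malat1, had 34 Input counts and ENSG00000270117, within MALAT1, had 8, and neither had counts in IP. Since the strand setting of the counting is not stated, reads of such a record and of its host may not have been told apart. TALAM1, antisense to MALAT1, is not in the count table.

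Genes whose products build the bodies that these RNAs belong to had lower IP/Input values than the RNAs in K562. Of 16 paraspeckle proteins, 15 were tested in mESC, where 14 were lower in IP, none was higher and the median log2 IP/Input was -2.09. Among all genes tested 42.0% were lower, with a median of -0.17, but 10 of the 15 had at least 100 CPM in Input, where 97.8% of genes were lower and the median was -1.91, so the list did not stand out from genes of like abundance. With library size scaling alone 12 were lower and 1 higher (median -1.08). The 4 most abundant in Input were Ewsr1 (-1.61), Pspc1 (-2.07), Sfpq (-2.21) and Taf15 (-1.56), RNA-binding proteins of the paraspeckle, and Neat1 itself was at -1.64. The member not called was Ss18l1 (-0.39, adjusted p = 0.13), which is named after its value was seen. In K562, 14 were tested, 5 were higher, 2 lower and 7 not called, with a median of 0.26 against -0.16 over all genes, of which 15.1% were higher and 16.4% lower. Of the 14, 8 had at least 100 CPM in Input, with 2 higher and 2 lower, where 2.94% of genes were higher and 56.5% lower. The most abundant were DAZAP1 (0.14, not called), PSPC1 (-0.66, lower), SFPQ (0.38, not called) and RBMX (0.70, higher). Among the others called higher were NONO (0.64), HNRNPH3 (0.60) and HNRNPK (1.2), and CPSF6 (-1.35) was lower, all named after their values were seen. The direction depended on the scaling: with all counted records as library size none was higher and 6 were lower (median -0.46), and with library size scaling alone 6 were higher and 1 lower (median 0.53). NEAT1, at 1.56, lay above the highest of these values.

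Nuclear speckle proteins were likewise below MALAT1 in K562. All 18 were tested in mESC and all 18 were lower, with a median of -2.10, and 17 of them had at least 100 CPM in Input, where 97.8% of all genes were lower. The most abundant were Rbm25 (-1.80), Srrm2 (-1.80), Son (-2.22) and Rbm39 (-2.48), which serve splicing or speckle structure, and the list ran from -2.72 to -0.95, so that its upper end was close to Malat1. In K562, 16 were tested, 2 were higher, 4 lower and 10 not called, beside 15.1% higher and 16.4% lower among all genes. Of the 16, 10 had at least 100 CPM in Input, with 1 higher and 4 lower, where 2.94% of genes were higher and 56.5% lower. The list's median was 0.079, which was -0.64 with all counted records as library size (2 higher, 10 lower) and 0.35 with library size scaling alone (5 higher, 2 lower). SRRM2, a speckle scaffold protein, was higher (1.09, adjusted p = 5.0e-20), and THRAP3 (-0.76), SRSF4 (-0.48) and RBM39 (-0.43) were lower. The other calls, named after their values were seen, were PNN (1.34, higher) and BCLAF1 (-1.18, lower). MALAT1, at 3.38, was above the highest value of the list.

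Of 15 genes for end processing and binding of the 2 RNAs, 14 were tested in mESC and all 14 were lower, with a median of -2.03, against 42.0% of all genes. By Input level, 5 of them had at least 100 CPM, where 97.8% of genes were lower, 5 had 10 to 100 CPM (74.3%) and 4 had 1 to 10 CPM (17.5%). The most abundant were Drosha (-1.43) and Dgcr8 (-2.38), the microprocessor, Hnrnpc (-2.87) and Mettl16 (-2.01), a methyltransferase that binds the MALAT1 triple helix. In K562, 13 were tested, 2 were lower and none higher, beside 16.4% lower and 15.1% higher among all genes. Of the 13, 4 had at least 100 CPM in Input, with 1 lower, where 56.5% of genes were lower. With all counted records as library size 9 were lower, and with library size scaling alone none was called either way. DROSHA (-0.53, adjusted p = 0.030) was called lower, DGCR8 (-0.22), HNRNPC (-0.25) and METTL16 (-0.28) were not called, and POP1 (-1.75), an RNase P subunit named after its value was seen, was lower with 3 IP counts in all. RPP14 and POP7 had no IP counts in K562, so the list's median was -0.53 as fitted and -0.28 with these genes at the bound that 3 counts over the group give.

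Other nuclear lncRNAs were mostly below MALAT1 and NEAT1 in K562. In mESC, 13 of 19 were tested, 12 were lower and 1 higher, with a median of -2.31, against 42.0% and 39.9% of all genes. Of the 12, 8 had at least 100 CPM in Input, where 97.8% of genes were lower. Pvt1 (-1.98), Kcnq1ot1 (-2.43), which silences an imprinted domain, Firre (-2.77) and Meg3 (-1.94) were the most abundant, and Malat1 lay above each of these 4. Rn7sk (-0.61), called lower with 192 CPM in Input and named after its value was seen, lay above Malat1. The RNA called higher was Miat (2.02), with 1.88 CPM in Input and 25 IP counts, named after its value was seen. In K562, 14 were tested, 3 were higher, 4 lower and 7 not called, with a median of -0.44, beside 15.1% higher and 16.4% lower among all genes, and with all counted records as library size 2 were higher and 8 lower. Of the 14, 4 had at least 100 CPM in Input, with none higher and 3 lower, where 2.94% of genes were higher and 56.5% lower. PVT1 (-0.80), KCNQ1OT1 (-0.98) and DLEU2 (-0.72) were lower and FIRRE (-0.50, adjusted p = 0.12) was not called. The others called, named after their values were seen, were GAS5 (1.58), SNHG1 (0.98) and MEG3 (5.28, from 9 IP counts and 21 Input counts) as higher and SNHG12 (-2.14, from 2 IP counts) as lower. GAS5, a snoRNA host gene with 63 IP counts, was thus close to NEAT1 in value.

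Genes next to Malat1 and Neat1 were counted at lower levels than the pair. Of 20 counted genes within 100 kb in mouse, 12 were tested in mESC, 5 were higher, 3 lower and 4 not called, against 39.9% higher and 42.0% lower among all genes, while with library size scaling alone 9 were higher and none lower. Frmd8 (-0.033), on the 5′ side of Neat1, was not called, Dpf2 (-1.24), Sssca1 (-1.53) and Frmd8os (-3.03) were lower, and Ltbp3 (2.70), Cdc42ep2 (3.06), Tigd3 (2.32), Slc25a45 (4.51) and Kcnk7 (5.12), each under 4 CPM in Input, were higher. Of these 5, 4 were under 1 CPM, where 91.6% of all tested genes were called higher, so no direction of the neighbours can be read from them. In K562, 8 of 24 counted neighbours were tested and LTBP3 (0.94, adjusted p = 0.015) was higher, beside 15.1% higher and 16.4% lower among all genes. With all counted records as library size none was higher and 4 were lower. Among those not called were FRMD8 (-0.13), DPF2 (-0.59), EHBP1L1 (0.10), SLC25A45 (1.95, adjusted p = 0.064), ZNRD2 (-0.65) and FAUP4 (0.58). MALAT1 and NEAT1 were the highest in IP CPM of the K562 window, in which no tested neighbour passed 178 CPM.

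Genes with a pattern like that of Malat1 or Neat1 were sought among 7402 other genes with at least 5 CPM in both Inputs by the Euclidean distance of the pair of log2 IP/Input values with TMM scaling. The mESC values of Malat1 and of its nearest genes depended on the setting: with thinned Input counts, which also shortened the gene list, they were 0.31 for Malat1, 0.21 for Pde4d, 0.40 for Rpl19 and 0.021 for Rplp1. Nearest to Malat1 was PDE4D, a cAMP phosphodiesterase, at a distance of 0.183, with -1.15 in mESC and 3.48 in K562 (SE 0.47, from 21 IP counts). RPL19 (-0.68 and 3.24) and RPLP1 (-1.14 and 3.00), both ribosomal proteins whose many processed pseudogenes make counts uncertain, followed at distances of 0.350 and 0.409. In K562 Input, PDE4D stood at 5.19, RPL19 at 26.4 and RPLP1 at 15.0 CPM, far below MALAT1 at 447 CPM, so these genes were not of like abundance. Nearest to Neat1 were POLR2E, a subunit of RNA polymerases (-1.63 and 1.51), STXBP2 (-1.59 and 1.55) and PTPRF (-1.61 and 1.62), at distances of 0.0514, 0.0569 and 0.0654, with 12 to 32 IP counts in K562. Their K562 Input levels were 31.1, 27.4 and 10.8 CPM, against 548 CPM for NEAT1. Apart from the 2 members, 16 of 7401 genes had a higher K562 value than MALAT1 and 217 a higher one than NEAT1.

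**Figure D5:**
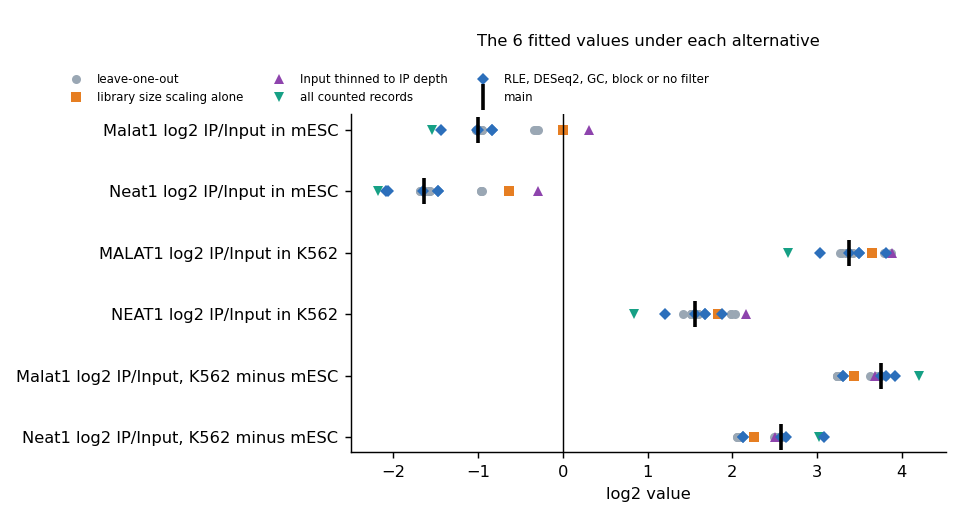
The 6 fitted log2 values of the members under the reported setting (vertical bar) and each alternative (points). The K562 values and the differences between the lines stayed above 0 under all of them, whereas Malat1 in mESC spanned 0, from -1.54 to 0.31.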

How the data were processed

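Per the labels and the methods, the authors trimmed reads with Trimmomatic 0.39, aligned them to mm10 (GENCODE M19) or hg38 (GENCODE v29) with HISAT2 2.1.0 and deposited raw gene counts per library, with HTSeq-style summary lines; the methods name HTSeq and featureCounts for RNA-seq, and the counter of these libraries and its strand setting are not given in the sources used here. The deposited mESC peaks, given as start and end with no score, were called by the authors per library and strand with MACS2 2 after deduplication and strand separation (SAMtools 1.16.1). The study scaled to spike-in RNAs, which are not analysed here.

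Counts without the summary lines were fitted with edgeR 4.0.16 (filterByExpr, TMM, quasi-likelihood test, adjusted p threshold 0.05) on whole tables of 20244, 14522 and 14242 genes. DESeq2 1.42.0 was an alternative. Exact permutation tests used scipy 1.17.1. On simulated counts with 200 changed genes, the fits recovered 199 (mESC, 15540 genes), 199 (K562, 13503 genes) and 169 (interaction, 11921 genes), with 9, 10 and 11 false calls (4.33%, 4.78% and 6.11% of calls). The simulated IP libraries kept the Input proportions apart from these well-counted genes, with 1 common dispersion per fit. The drift of IP/Input with Input level was not simulated, so these rates do not carry over to the real tables. Lengths and sequences came from GENCODE M21 and v44 and matched 99.9% and 99.2% of identifiers. Peaks were merged at 1 bp of overlap. From each list the 4 members highest in Input CPM were named, with the 3 genes nearest in pattern to each lncRNA. Other settings were those in the closing section. Intervals and floors cover counting error only. The members and lists were chosen with earlier results of these data known. Values of some list members and neighbours are not reported here, though the list counts include them.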

Additional observations from a re-analysis of the deposited data

Results flagged for a closer look

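Malat1 was singled out for a closer look because its log2 IP/Input differed between the lines by a test of the difference itself: it was 3.75 higher in K562 than in mESC, in the interaction term of the edgeR fit, and all 3 K562 IP libraries lay above all 3 K562 Input libraries in CPM. Neat1 was singled out in the same way, with a difference of 2.57, and its 3 mESC IP libraries lay below and its 3 K562 IP libraries above the Input libraries of their line. Outlying libraries were not looked for, since groups of 3 are too small.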

How the results depend on the processing

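Of the 20 alternatives for each fitted value, all left Neat1 in mESC (-2.18 to -0.29), MALAT1 (2.66 to 3.89) and NEAT1 (0.84 to 2.16) in K562, and the differences between the lines (3.23 to 4.20 for Malat1, 2.06 to 3.08 for Neat1) with the same direction and call. Malat1 in mESC kept both under 18, with -0.83 under RLE scaling and DESeq2, -1.44 without a filter on low counts and -1.01 with the GC correction, whereas scaling by library size alone gave 0.0046 and thinned Input counts gave 0.31. Leaving out a library gave -1.02 to -0.29 for Malat1 and -1.69 to -0.95 for Neat1 in mESC, 3.27 to 3.87 for MALAT1 and 1.42 to 2.03 for NEAT1. The within-library ratio moved between 0.60 and 0.70 in mESC and between 1.78 and 1.85 in K562. The Input level of Malat1 per kb kept its direction (-3.80 to -3.58), while the difference for Neat1 lay at -0.14 to 0.078, the latter with only genes that share a symbol in the denominator, and at -0.043 to 0.0056 without 1 library each. The 2 Neat1 peaks became 0 where at least 2 replicates and 0 where all 3 were required, and 1 to 2 without 1 list each. Without an Input library in mESC the moves of Malat1 and Neat1 came with a shorter gene list, and on the unchanged list the values were -0.98, -1.02 and -1.0 for Malat1 and -1.66, -1.65 and -1.63 for Neat1. The causes of the other changes were not tested.

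With the replicate number as a block the values were -1.0 (Malat1) and -1.65 (Neat1) in mESC, 3.38 and 1.56 in K562, 3.75 and 2.58 for the differences between the lines and 0.65 and 1.82 for the ratios, and no call of a member changed. Residuals of equally numbered Input and IP libraries correlated at 0.0033 to 0.030, so the numbers were not taken to pair the libraries.

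For 78 other gene results, 62 of 1008 alternatives had the other sign, 128 lost a call and 49 gained one. The sign changes that involved a call were these. With all counted records as library size DAZAP1 was at -0.58, HNRNPH3 at -0.11, NONO at -0.076, RBMX at -0.016 and EHBP1L1 at -0.62. With thinned Input counts DROSHA was at 0.11, SRSF4 at 0.17, Rplp1 at 0.021, Rpl19 at 0.40, Pde4d at 0.21, Frmd8 at 1.15, Dpf2 at 0.11 and Ss18l1 at 1.03. With library size scaling alone Rpl19 was at 0.33, Frmd8 at 0.97 and Ss18l1 at 0.62, and with the GC correction RBM39 was at 0.18. Leaving out 1 library gave -0.57 to 0.023 for RBM39, -0.91 to 0.0067 for Rpl19, -0.24 to 0.70 for Frmd8, -0.64 to 0.29 for Ss18l1 and -0.068 to 0.60 for DAZAP1, which was called higher without Input replicate 1, 2 or 3 (0.56, 0.60 and 0.58). Few IP counts limit K562 most, where a gene under 27.0 CPM can have no counts in a library.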

Other observations

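The study's primer list holds a pair named mMALAT1, and both primers matched mouse Malat1 exactly, the forward one at 588 to 607 bases and the reverse one at 669 to 690 bases from the 5′ end. They are shown because every base of both matches is repeat-masked in GRCm38.
mMALAT1_F: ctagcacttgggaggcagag
mMALAT1_R: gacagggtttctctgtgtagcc
Over the chromosomes searched, the forward sequence occurred exactly 2753 times and the reverse sequence 39205 times on either strand. What the pair amplified in the study was not analysed here.

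Outside the 2 gene bodies, the mESC peak regions nearest to Neat1 on its 5′ side lay in Frmd8, at chr19:5869406-5869555 on the strand of that gene in replicate 1 and at chr19:5873022-5873171 on the other strand in replicate 3. The regions of the window that 2 replicates shared were both in Pola2 (chr19:5941979-5942128 and chr19:5942346-5942528, replicates 1 and 2), recorded opposite to that gene.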
